A study of Schizosaccharomyces pombe with 22 samples.

Results

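The 6 fission yeast genes upf3 (SPAC13G7.03), ste13 (SPBC776.09), not2 (SPCC4G3.15c), pab2 (SPBC16E9.12c), rmn1 (SPBC902.04) and mmi1 (SPCC736.12c) all encode proteins of RNA decay or poly(A) binding, and this is an account of how their introns were spliced. They were taken by gene identifier from the deposited tables of Schizosaccharomyces pombe introns, and the 6 stand among 2356 genes listed there. Together they have 16 of the 4701 listed annotated introns. Lariat reads were found for 10 of those 16, and for 2812 of the 4701. The 10 introns held 5137 of the 3446224 lariat reads at annotated introns, and 6 of the 10 reached 50 reads in a condition. Also inside these genes, on their strand, were 4 of 3731 listed alternate lariats, 4 of 8113 unannotated ones and 1 of 230 exon skips. Apart from upf3, the genes were selected on lariat reads of these data, by condition and against introns of like length. The lariat values below are therefore a description and carry no test. The listed upf3 intron had 0 lariat reads and its alternate lariat 1, too few for upf3 to be selected on them. All 6 genes were chosen with earlier results of these data known, so the upf3 junction counts below may not be independent of that choice.

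The series holds 22 samples. Lariats were sequenced in 12 libraries, 4 each from heat shock, diauxic shift and rich media, all made from a 972h- strain that lacks dbr1. Dbr1 opens the 2'-5' bond of an excised intron, and cells without it keep their introns as lariat loops, so no condition has a lariat library from cells with the enzyme. The 4 libraries of a condition, labelled long or short, were deposited as 1 sum, and no spread between libraries can be given. RNA-seq of polyadenylated RNA gave 10 libraries. Of these, 2 came from strain ED668 with the deletion of upf1 and 2 from ED668 itself. The dbr1 deletion and wild type 972h- gave 1 library each under heat shock, diauxic shift and rich media. Heat shock duration and temperature, the clones behind each deletion and the cultures behind each library are not stated in the sources used here, so the spread between libraries may be technical.

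Eukaryotic mRNA is removed by shortening of its poly(A) tail, removal of its cap and digestion from both ends. Upf3 belongs to nonsense-mediated decay, which removes mRNAs whose reading frame stops early and in which the helicase Upf1 acts. Ste13 is the DEAD-box helicase of decapping, the counterpart of Dhh1 in Saccharomyces cerevisiae, and Not2 is a subunit of the CCR4-NOT deadenylase. Pab2 is the nuclear poly(A) binding protein, Rmn1 an RNA binding protein of the nuclear complex that hands RNA to the exosome, and Mmi1 the YTH-domain protein that marks meiotic transcripts for removal in growing cells. In splicing, the 5' end of an intron is joined to an adenosine near its 3' end, the branch point, and a lariat read crosses that joint.

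The 6 introns that reached 50 reads in a condition, and not2 intron 1 with 21 reads, are shown here from RefSeq (ASM294v3), 5' to 3'. They show how a common architecture is spread over different lengths. Capitals mark the first 6 bases of the intron and the 5 bases around the branch point, of which the fourth is the branch adenosine.
ste13 intron 1, chrII:3191656-3191701, plus strand: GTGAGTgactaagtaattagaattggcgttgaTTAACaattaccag
not2 intron 1, chrIII:441689-441748, plus strand: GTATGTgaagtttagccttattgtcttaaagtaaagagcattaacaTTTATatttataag
not2 intron 2, chrIII:442146-442213, plus strand: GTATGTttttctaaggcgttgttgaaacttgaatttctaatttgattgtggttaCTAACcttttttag
pab2 intron 1, chrII:1940670-1940720, minus strand: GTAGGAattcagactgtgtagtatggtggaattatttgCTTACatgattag
pab2 intron 3, chrII:1940217-1940272, minus strand: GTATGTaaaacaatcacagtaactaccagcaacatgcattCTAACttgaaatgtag
rmn1 intron 2, chrII:489988-490077, plus strand: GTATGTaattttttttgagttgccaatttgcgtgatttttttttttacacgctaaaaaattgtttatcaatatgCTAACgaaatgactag
mmi1 intron 1, chrIII:339355-339482, minus strand: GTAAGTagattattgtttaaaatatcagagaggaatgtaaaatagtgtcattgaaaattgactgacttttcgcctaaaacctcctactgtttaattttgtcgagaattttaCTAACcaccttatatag

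The most used branch point had the 5 bases CTAAC, read on the intron's strand, in 7 of the 10 introns with reads and in 49.2% of the 2812 such introns of the series. All 10 carried a T in the second place and the adenosine in the fourth, against 99.7% in the series. At the 5' end, 5 of the 10 began with GTATGT, against 22.1% in the series, and 1 of 10 with GTAAGT, against 30.4%. Branch points lay 8 to 13 bases before the 3' end of the intron, with a median of 10, against a median of 12 and a 5th to 95th percentile of 8 to 17.3 over the 2774 introns of the series that matched RefSeq. The 10 introns were 58.2% to 75% A or T, with a median of 69.2%, against a median of 70% in the series. With 10 introns of 5 genes these shares are a description, and nothing is read from their differences.

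In the series, whether an intron gave lariat reads varied with its length, and the 16 introns of these genes are too few to show such a relation. Of the 4 introns listed at 50 bases or fewer, 2 had reads, against 15.2% of 1537 in the series, and of the 10 between 51 and 75 bases 6 had reads, against 69.2% of 1684. The single introns in the classes of 76 to 100 bases and above 100 bases, rmn1 intron 2 and mmi1 intron 1, both had reads, against 98% and 94.3%. The 6 introns with no read were upf3 intron 2, ste13 intron 2, rmn1 introns 1 and 3, and mmi1 introns 3 and 4, between 38 and 54 bases long in RefSeq. For upf3 intron 1, a 59-base intron that RefSeq places at chrI:2299134-2299192, the table of annotated introns had no entry.

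The reads of these genes were spread unevenly over the 3 conditions, which held 414698 annotated branch reads in heat shock, 1273655 in diauxic shift and 1253548 in rich media. Ratios to rich media below are scaled by those totals and come with exact 95% conditional binomial intervals, which cover counting error only. Heat shock and diauxic shift are set against the same rich column, so their ratios share it.

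**Figure D1:**
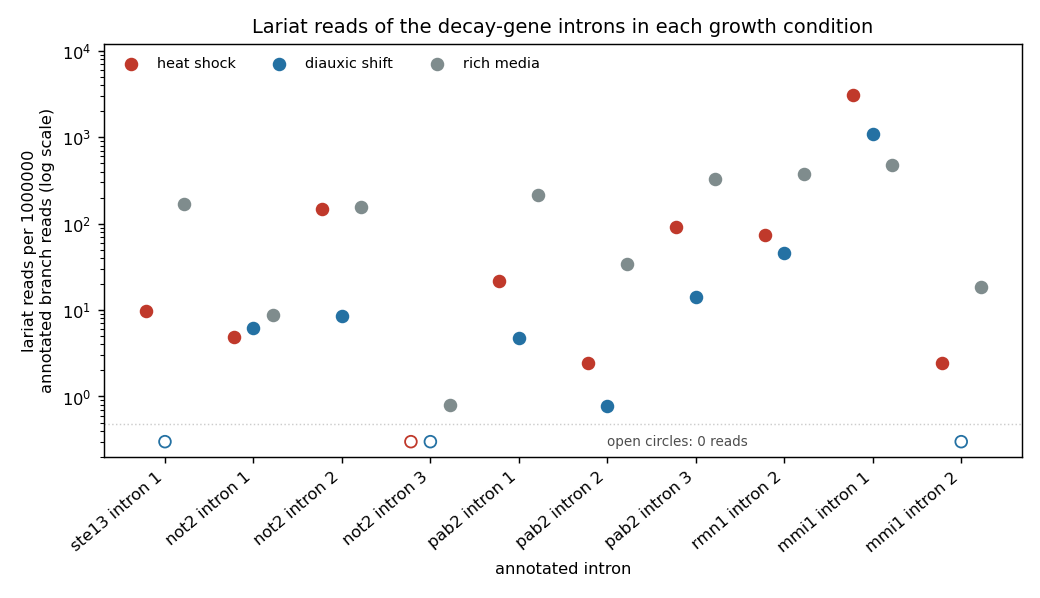
Lariat reads per 1000000 annotated branch reads (log scale) for the 10 annotated introns with reads, in heat shock, diauxic shift and rich media. Each point is the sum of 4 libraries and open circles stand for 0 reads; mmi1 intron 1 reached 3082 in heat shock, against 475.5 in rich media.

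Among the cytoplasmic decay genes, ste13 intron 1 had 4 reads in heat shock and 0 in diauxic shift, against 210 in rich media. Its heat shock ratio was 0.0576 (0.0155 to 0.150). The diauxic ratio was 0 (0 to 0.0174). Taking 3 reads in that sum as the floor would make it 71.1-fold lower with this scaling. The other scalings, given at the end, raise this and every other diauxic ratio. Nearly all of this intron's reads, 98.1%, came from rich media.

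For not2, the 68-base intron 2 had 62 reads in heat shock and 11 in diauxic shift, against 195 in rich media. After scaling, the heat shock ratio was 0.961 (0.710 to 1.285) and the diauxic ratio 0.0555 (0.0273 to 0.102). The heat shock ratio depends on the scaling, at 1.22 with a trimmed mean of the ratios (TMM) and 1.79 with lariat read totals. The neighbouring introns of not2 were little seen, intron 1 with 2 reads in heat shock and 8 in diauxic shift, against 11 in rich media, and intron 3 with 1 read, in rich media.

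The few reads of not2 intron 1 used 2 branch points that lie 6 bases apart. At the upstream adenosine, in TTAAC, there were 2 reads in heat shock and 0 in diauxic shift, against 7 in rich media. At the downstream one, in TTTAT, marked in capitals above, there were 0 in heat shock and 8 in diauxic shift, against 4 in rich media. The downstream site thus took 100% of the diauxic reads (Wilson 95% interval 67.6% to 100%), against 36.4% in rich media (15.2% to 64.6%). Each share is 1 sum of at most 11 reads.

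In pab2, the 3 introns are of similar length, 51, 55 and 56 bases, and gave 287, 45 and 465 reads. Intron 1 had 9 reads in heat shock and 6 in diauxic shift, against 272 in rich media, with ratios of 0.1 (0.0453 to 0.193) and 0.0217 (0.00790 to 0.0479). Intron 3 had 38 in heat shock and 18 in diauxic shift, against 409 in rich media, with ratios of 0.281 (0.196 to 0.392) and 0.0433 (0.0254 to 0.0693). Both introns belong to the same gene. Intron 3 had the higher ratio in each condition, but in diauxic shift the intervals of the 2 introns overlap. Intron 2, with 1 read in heat shock and 1 in diauxic shift, against 43 in rich media, had ratios of 0.0703 (0.00174 to 0.413) and 0.0229 (0.000567 to 0.135).

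Of the nuclear elimination genes rmn1 and mmi1, each had 1 intron with more than 50 reads in a condition, and the ratios of these introns lay on opposite sides of 1. The 90-base rmn1 intron 2 had 31 reads in heat shock and 59 in diauxic shift, against 465 in rich media. Its ratios were 0.202 (0.135 to 0.29) in heat shock and 0.125 (0.0936 to 0.164) in diauxic shift. All but 1 of its 555 reads used the same branch point. Introns 1 and 3 of rmn1, of 38 and 54 bases, had no reads.

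The 128-base mmi1 intron 1 was, with this scaling, the only 1 of the 10 with a ratio above 1, and it ranked 228th of all annotated introns by lariat reads. It had 1278 reads in heat shock and 1383 in diauxic shift, against 596 in rich media. The ratios were 6.48 (5.88 to 7.16) and 2.28 (2.07 to 2.52). Other scalings took not2 introns past 1 as well. The heat shock ratio of not2 intron 2 did so with both other scalings, as given above, and the diauxic ratio of not2 intron 1 was 1.30 with TMM and 3.93 with lariat read totals. With read totals the heat shock ratio of not2 intron 1 was 1.02. Downstream, the 47-base intron 2 had 1 read in heat shock and 0 in diauxic shift, against 23 in rich media, and the 53-base and 44-base introns 3 and 4 had none. The heat shock ratio of intron 2 was 0.131 (0.00319 to 0.809), below 1 where that of intron 1 was above it.

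Over the whole series the same ratios ran with intron length, and each intron is therefore also set against introns of like length. Across introns with at least 50 reads in the higher condition, Spearman's rho between length and ratio was 0.815 over 1299 introns in heat shock and 0.823 over 1338 in diauxic shift. All points of a condition share the same libraries and read depth, and library type, long or short, is summed within them. The measure used is the log2 ratio minus the running median taken with 50 introns on either side in order of length (0.5 reads added), and it does not move with the scaling of the libraries.

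**Figure D2:**
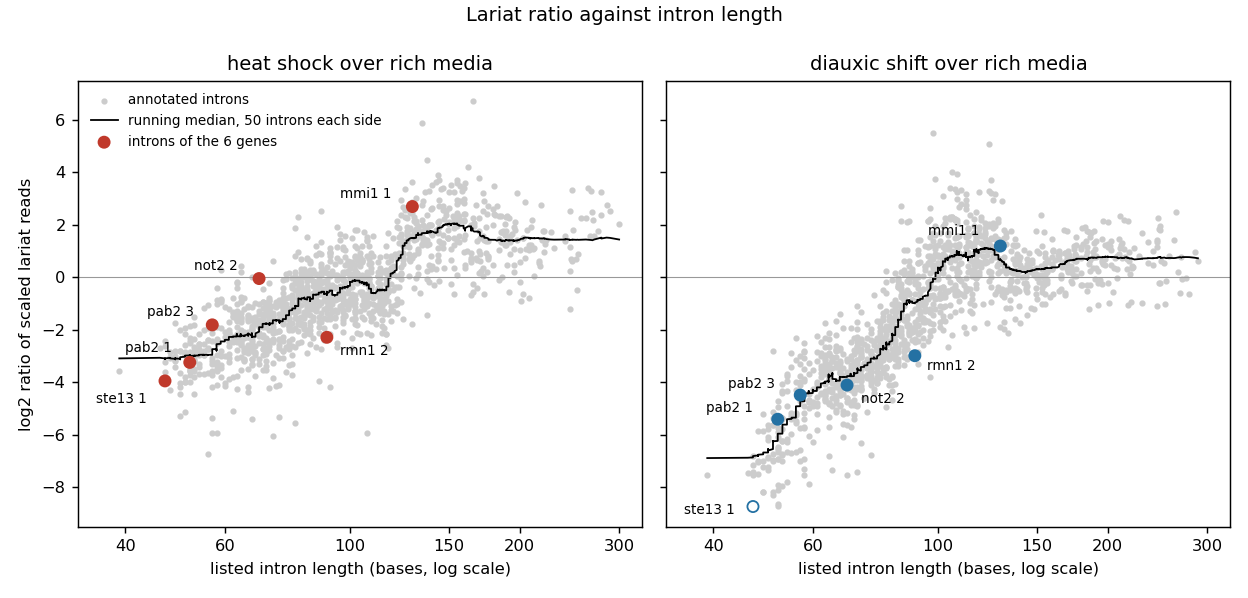
Log2 ratio of scaled lariat reads against listed intron length (log scale), heat shock over rich media on the left and diauxic shift over rich media on the right. Grey points are annotated introns, the line is the running median with 50 introns on either side and coloured points are the 6 introns of the decay genes with 50 reads; the open circle is ste13 intron 1, with 0 diauxic reads. In heat shock not2 intron 2 stands above the line by 1.86 and rmn1 intron 2 is at -1.74 from it.

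Against introns of like length, rmn1 intron 2 was low in both conditions, at -1.74 in heat shock and -2.02 in diauxic shift on the log2 scale. Of the introns compared, 5.16% lay lower in heat shock and 3.59% in diauxic shift. Although mmi1 intron 1 had the highest raw ratios, its difference from its length peers was 1.20 in heat shock, with 0.53 in diauxic shift. The highest heat shock value of the 6, at 1.86 and above 97.0% of introns, was that of not2 intron 2, whose diauxic shift value was -0.34.

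In pab2, intron 3 had values of 1.01 (heat shock) and 0.29 (diauxic shift), and intron 1 had -0.28 and 0.74. The low raw ratios of ste13 intron 1 were close to those of other very short introns, with -0.83 in heat shock. For diauxic shift, where it had 0 reads, the 3-read floor lies 0.69 above the peer median, so this intron could not be placed below introns of its length.

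More than 2-fold above their length peers in heat shock were 3 of the 6 introns, not2 intron 2, mmi1 intron 1 and pab2 intron 3, against 13.6% of the 1299 introns compared. The value of pab2 intron 3, 1.01, came to between 0.89 and 0.98 with a narrower window, a larger pseudocount or a lower minimum of reads. Below by more than 2-fold was 1 of the 6, rmn1 intron 2, against 15.9%. With a minimum of 20 reads ste13 intron 1, at -1.04 in place of -0.83, would also count as below. In diauxic shift 0 of the 6 were more than 2-fold above, against 15.5% of 1338, and 2 of the 6 were below, rmn1 intron 2 and ste13 intron 1, against 17%. With ste13 intron 1, which had 0 reads, set at the 3-read floor, 1 of the 6 was below. The median over the 6 was 0.36 in heat shock and -0.03 in diauxic shift, or 0.41 with ste13 set at the 3-read floor. Over all introns compared the medians were 0.01 and 0.

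Of 65 other RNA decay genes, 64 were found in the name table and 40 had a listed intron. They had 87 listed introns, of which 50 had lariat reads. In heat shock, 3 of their 24 introns with 50 reads were more than 2-fold above introns of like length and 4 were below, with a median of -0.53. In diauxic shift 4 of 25 were above and 3 below, with a median of -0.02. The introns of lsm2 to lsm7 in this list belong to proteins shared with the spliceosome.

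Among those genes in heat shock, intron 1 of dis3, the exosome nuclease, stood at -2.33 from its length peers on the log2 scale, with 54 reads in heat shock against 241 in rich media. Intron 1 of caf16, listed with the deadenylation genes, had 0 reads in heat shock against 71 in rich media. Its distance from its peers depends on how 0 reads are treated, at -4.41 with 0.5 reads added and -1.82 at the 3-read floor. Intron 2 of pan3, of the Pan2-Pan3 deadenylase, stood at -1.87, and intron 1 of edc3, an enhancer of decapping, at -1.66.

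In diauxic shift the list was led by intron 1 of crp79, a poly(A) binding protein of mRNA export, at 3.71, with 64 diauxic reads against 14 in rich media. Intron 2 of cid1, a uridylyltransferase, followed at 2.66, with 4401 diauxic reads against 501 in rich media. Intron 1 of lsm6 stood at -2.11. Intron 2 of pab1, the cytoplasmic poly(A) binding protein, stood at 1.54 in heat shock and 1.40 in diauxic shift.

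**Figure D3:**
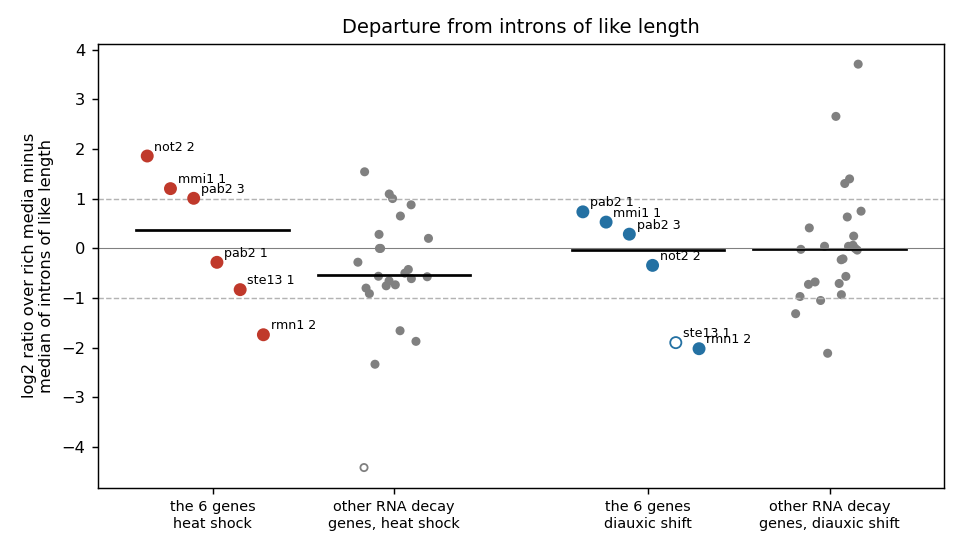
Log2 ratio over rich media minus the median of introns of like length, for introns of the 6 genes and of other RNA decay genes, in heat shock and diauxic shift. Each point is an intron with at least 50 reads in the higher condition, open points have 0 reads in the condition (drawn with 0.5 reads added), horizontal bars are medians and dashed lines mark a 2-fold difference. The medians of the 6 genes lie at 0.36 and -0.03, those of the other genes at -0.53 and -0.02.

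Introns of other genes with the most similar pair of log2 ratios were sought among introns within 5 bases of the same length. For mmi1 intron 1 these were mrp5 intron 1 and spb4 intron 1, at Euclidean distances of 0.27 and 0.48 among 76 introns. For rmn1 intron 2 they were rpl3802 intron 2, at 0.16, and mis14 intron 1, at 0.39, among 151. For not2 intron 2 the nearest, trk2 intron 9 and SPBPJ4664.05 intron 1, lay at 0.49 and 0.53 among 173. The nearest to pab2 intron 1 were txl1 intron 1 and cox13 intron 2, at 0.12 and 0.32 among 97, and to pab2 intron 3 cps3 intron 1 and cdc48 intron 1, at 0.12 and 0.18 among 116. For ste13 intron 1, rps29 intron 1 and pub1 intron 2 came nearest among 49, but these also had 0 diauxic reads, so that ratio is set by the rich media count and no likeness is read from it. Likeness here is over 2 ratios that share the rich media column.

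An alternate lariat of upf3, the nonsense-mediated decay gene, had the most junction reads in RNA-seq of all events in the 6 genes. It joins a 5' site that lies 8 bases before the annotated start codon to the annotated 3' site of intron 1, and leaves out 222 bases, among them the start codon and 155 of the 837 coding bases. The sequence is printed because it holds both 5' sites. Capitals mark, in order, the alternate 5' site, the annotated start codon, the annotated 5' site of intron 1 and the 5 bases around the branch point.
upf3 alternate intron, chrI:2298971-2299192, plus strand: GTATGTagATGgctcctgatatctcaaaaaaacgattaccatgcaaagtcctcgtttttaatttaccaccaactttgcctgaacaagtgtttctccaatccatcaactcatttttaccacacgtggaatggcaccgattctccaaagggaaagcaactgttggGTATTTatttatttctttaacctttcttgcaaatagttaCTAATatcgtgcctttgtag
The alternate 5' site GTATGT begins 22.1% of introns with reads in the series, and the annotated GTATTT 0.249% of them. Branch sequence CTAAT is found at 21.2%.

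Reads across this exon-exon junction numbered 14 and 12 in the 2 upf1 deletion libraries, against 0 and 0 in the 2 ED668 libraries. Per 1000000 aligned reads (RPM) that is 0.384 and 0.395, or 0.389 ± 0.0081 RPM (SD, n = 2), in the upf1 deletion. For ED668, 0 of 63591117 aligned reads allows up to 0.0472 RPM. With that floor of 3 reads taken over the group, the upf1 deletion was at least 8.24-fold higher per aligned read. No read count of the annotated upf3 junction was used, here or below. A larger share of the alternate form, by whatever route, and more upf3 mRNA as a whole therefore cannot be told apart. Both deletion libraries lie above both ED668 libraries, but the share of all junctions that separate in this way was not counted, so nothing is read from it.

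Among the 58 alternate junctions with enough reads, the upf3 junction had an unadjusted p of 0.0132 in edgeR's quasi-likelihood test. Its adjusted p of 0.0638 misses the 0.05 threshold, while 5 of the 58 (8.62%) were called higher in the upf1 deletion. The upf3 junction passed the filter on low counts only through the upf1 deletion libraries, where it is high. Its p-values from the filtered fits are therefore a description and no independent support. The gene was also chosen with earlier results of these data known, so the fit without the filter may not be independent either. DESeq2 gave an adjusted p of 0.00672, edgeR with aligned reads as library size 0.00585 and edgeR without the filter on low counts 0.000342, so the call depends on the tool, the library size and the filter. Over all 8 alternatives in which it was tested, the adjusted p ran between 0.000342 and 0.253. No junction of the 65 other decay genes had enough reads to be tested, although 7 of their 51 alternate junctions had a read in these 4 libraries.

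In the other set of libraries, the dbr1 deletion had 0 upf3 junction reads in heat shock, 0 in diauxic shift and 0 in rich media, against 4 in heat shock, 3 in diauxic shift and 2 in rich media in wild type. Wild type had 0.194 ± 0.0597 RPM across the junction (SD, n = 3), and the dbr1 deletion, with 0 of 44767424 aligned reads, allows up to 0.0670 RPM, which makes it at least 2.89-fold lower. All 3 wild type libraries lie above all 3 dbr1 deletion libraries, but the share of all junctions that separate in this way was not counted, so nothing is read from it. This junction did not pass the filter on low counts in those 6 libraries. Without the filter, edgeR's quasi-likelihood test gave it an unadjusted p of 0.0714 and an adjusted p of 0.999 over 1954 junctions. Wild type in 3 conditions and ED668 both carry upf1. Their rates, 0.194 RPM and 0 (0.0472 RPM at the 3-read floor), come from different strains and library sets. The part of each in the difference cannot be told apart. Heat shock, diauxic shift and rich media in wild type, with 0.263, 0.159 and 0.161 RPM, were within each other's counting intervals. The lariat of this event was seen in 1 read, in diauxic shift.

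**Figure D4:**
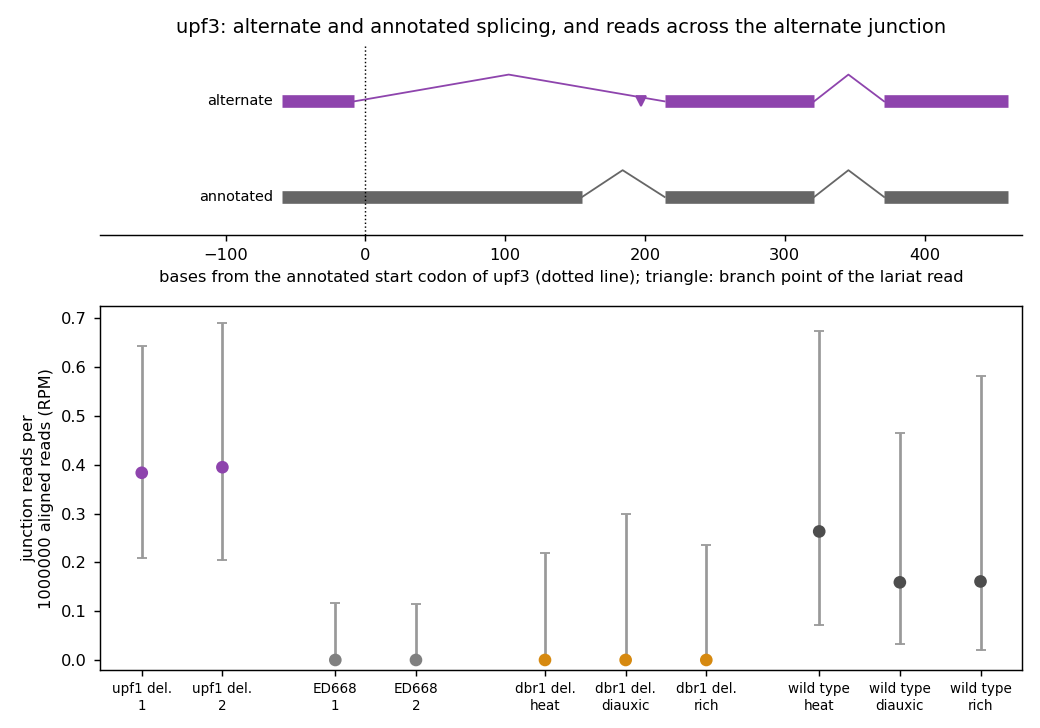
Top, exon structure around the alternate upf3 intron in bases from the annotated start codon, with the alternate form above the annotated one, exons as bars and a triangle at the branch point. Bottom, alternate junction reads per 1000000 aligned reads (RPM) in each RNA-seq library, with exact 95% Poisson intervals for counting error. The 2 upf1 deletion libraries sit at 0.384 and 0.395, the 2 ED668 and 3 dbr1 deletion libraries at 0.

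In not2, a second alternate lariat joins an upstream 5' site to the 3' site of intron 2 (chrIII:441905-442213), leaving out 241 of 921 coding bases out of frame, with a stop after 158 codons in place of 306. It had 1 lariat read, in rich media, which is 0.372% of the 269 reads of the alternate and intron 2 together (Wilson 95% interval 0.0657% to 2.08%). Junction reads numbered 4 and 0 in the upf1 deletion, against 4 and 2 in ED668, a pooled rate of 0.0598 RPM (0.0163 to 0.153) against 0.0943 (0.0346 to 0.205). The dbr1 deletion had 0 in heat shock, 0 in diauxic shift and 3 in rich media, against 0 in heat shock, 1 in diauxic shift and 0 in rich media in wild type. Each pair of groups overlaps, and the junction was too rare to be tested. It is marked in the deposited table as found in an earlier list of introns, the upf3 alternate as not found there.

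The same not2 5' site was also joined to branch points within the exon, in an unannotated intron of 111 bases seen only in diauxic shift. Branch points at positions 442003 and 442007 had 1 and 3 diauxic reads, against 0 and 0 in rich media, and heat shock had 0 and 0. It is printed because, unlike the alternate, it keeps the reading frame: without it 269 codons remain and the annotated stop is used. Capitals mark the first 6 bases and the 5 bases around the branch point with 3 reads.
not2 unannotated intron, chrIII:441905-442015, plus strand: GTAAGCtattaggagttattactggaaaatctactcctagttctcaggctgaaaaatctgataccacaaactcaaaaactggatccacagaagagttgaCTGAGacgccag
No RNA-seq library had a read across its junction.

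The remaining events of the 6 genes had 1 to 3 lariat reads each, and those with a junction count had no junction read in any RNA-seq library. Intron 1 of mmi1 had 1 diauxic read from a downstream 5' site (0.0307% of its reads, 0.00542% to 0.174%) and 2 diauxic reads toward an upstream 3' site (0.0614%, 0.0168% to 0.224%). Those forms would add 36 and 24 bases to the mRNA and meet a stop after 30 and 31 of 488 codons. An unannotated mmi1 intron of 118 bases had 2 reads in heat shock and 1 in diauxic shift, against 0 in rich media, and would end the frame after 168 codons. In ste13, an 89-base unannotated intron (stop after 289 of 485 codons) and a lariat that skips the 50-base exon 2 had 1 read each, both in rich media, and no junction count is given for the skip. For pab2 and rmn1 the tables of alternates, unannotated introns and skips held no event on the gene's strand.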

How the data were processed

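The authors deposited lariat branch counts as whole, unscaled read counts, summed over the 4 libraries of a condition, and RNA-seq junction counts per library for alternate and unannotated introns, per the file headers. A score headed Peak counts, deposited without a definition, was not used. Genome build ASM294v2 is named in the submitters' processing notes; the sources used here give no aligner. RefSeq sequences are of ASM294v3, on which all 17799 listed branches had GT at the 5' site and A at the branch point. Listed intron lengths exceed RefSeq by 1 base.

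Lariat sequencing gave 9467948 reads in heat shock, 9854589 in diauxic shift and 53284863 in rich media, and RNA-seq 12330328 to 36500561 aligned reads per library. Introns whose condition sums do not add up to the deposited total were left out of scaling and of the comparison by length. Junctions were tested with edgeR 4.0.16 (R 4.3.3; quasi-likelihood, TMM, filterByExpr with a minimum count of 10, Benjamini-Hochberg adjustment over all junctions tested), alternates alone for upf1 and alternates with unannotated introns for growth (strain as covariate) and dbr1 (condition as covariate). DESeq2 1.42.0 was the second tool, and Python 3.11.15, SciPy 1.17.1 and Biopython 1.88 did the rest. The comparison by length and the upf1 test were run on simulated data with known changes, where the upf1 test also made some false calls. The changed junctions there had reads expected in both groups, so a case like the upf3 junction was not simulated. Intervals cover counting error only. The 6 genes and the list of 65 others were chosen with earlier results of these data known. The named introns are all those of the 6 genes, the 2 nearest introns to each and, of the 65, up to 4 furthest from their length peers per condition.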

Additional observations from a re-analysis of the deposited data

How the results depend on the processing

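Another scaling moves every lariat ratio by the same factor, on the log2 scale by 0.9 in heat shock and 2.46 in diauxic shift with lariat read totals, and by 0.34 and 0.86 with TMM. With read totals the ratio of not2 intron 2 in heat shock was 1.79 in place of 0.961, and that of not2 intron 1 in diauxic shift 3.93 in place of 0.716, a ratio that was 1.97 with the most used branch point only. No ratio whose interval lies on 1 side of 1 changed direction under these scalings or with the most used branch point only. With a window of 51, a pseudocount of 1 or a minimum of 20 reads, departures of the 6 introns from introns of like length moved by less than counting error (ste13 intron 1 in diauxic shift, with 0 reads, has no such interval and was -1.90, and -2.48 with the lower minimum), and counts of introns more than 2-fold from them stayed within 1.5 times. Shares of alternates moved by less than counting error with all alternates in the denominator.

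The count of alternate junctions called for upf1, 8 in edgeR's fit (5 higher, 3 lower, and 16 at an unadjusted p under 0.05), was 5 with DESeq2, 5 with DESeq2's size factors in edgeR, 19 without the filter and 17 with aligned reads as library size. Leaving out each library gave 0 to 17 calls, with 0 without upf1 deletion library 1 or 2, 2 without ED668 library 1 and 17 without ED668 library 2. With the replicate number as a block the count was 0, and with the numbers crossed, an alternative chosen after seeing the data, also 0; the labels do not pair the libraries, and same-numbered deviations correlated at -0.128 over 58 junctions. For the upf3 junction the adjusted p was 0.0536 without ED668 library 1, 0.0113 without ED668 library 2 and 0.250 with the block, and it was not tested without either upf1 deletion library.

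For growth and dbr1, 85 junctions were tested, none of them in the 6 genes. Heat shock over rich media had 5 calls, 9 with DESeq2, 8 without the filter, 10 without the strain term and 3 to 8 when a library was left out. Diauxic shift over rich media had 0 (9 at an unadjusted p under 0.05, 0 with DESeq2) and 0 to 3 when a library was left out. The dbr1 deletion over wild type had 0 (5 at an unadjusted p under 0.05, 0 with DESeq2) and 0 to 1. Depth limits what can be seen of rare forms: 3 reads in an RNA-seq library are 0.0946 per 1000000 aligned reads in ED668 library 1 and 0.243 in the dbr1 deletion under diauxic shift.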

Other observations

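On the opposite strand of these genes, the table of unannotated introns listed 3 lariats that are not counted above. Against pab2, 2 such lariats had 1 diauxic read each. Against mmi1, 1 had 2 reads in rich media, and its junction had 1 read in wild type under diauxic shift and 1 in ED668 library 1, with 0 in the other libraries.

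A few branches inside the 6 genes stand in the table of all branches but in no table of introns, alternates or unannotated introns. In rmn1, the 5' site at position 490019, within intron 2, was joined to a branch point at 490218 in 3 diauxic reads, against 0 in rich media and 0 in heat shock. In mmi1, a 5' site at 339478, 4 bases into intron 1, had 1 read in heat shock against 1 in rich media at the usual branch point. The same offset was seen in pab2 intron 3 (position 1940268) and rmn1 intron 2 (position 489992). Each had 1 read at the usual branch point, in rich media.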
